A study of Mus musculus with 11 samples.

Results

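The clustered histone genes of BV2 microglia, the genes that encode the core histones H2A, H2B, H3 and H4 and the linker histone H1 from gene clusters, were taken as every row of the count tables whose symbol begins with Hist1h, Hist2h, Hist3h or Hist4h. These were 67 of 36529 genes, with 6 genes of type H1, 18 of type H2a, 18 of type H2b, 12 of type H3 and 13 of type H4. BV2 is a transformed microglial line of the mouse, and the sample labels give the strain as C57BL/6. Reads per gene were counted in 11 samples from 2 experiments. In the first, 3 samples received the amino-terminal fragment nApoE4 (residues 1 to 151, at 25 μg/ml for 5 h) and 3 samples were its controls (ControlA). In the second, 2 samples received nApoE3 at the same residues, dose and time, and 3 were its controls (ControlB). The fragments differ by 1 amino acid and carry a histidine tag from their purification. The study's methods give conditioned medium for the control cells and the labels name a PBS vehicle, and these statements leave the control treatment uncertain. Each fragment was given in an experiment of its own, so that fragment and experiment cannot be told apart. The study's methods call the transcriptome measurements independent without naming separate cultures, and the p-values below measure the spread between these samples, which may be technical.

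DNA is wound around octamers of the core histones, and H1 sits on the DNA where it enters and leaves. Most clustered histone genes are transcribed during S phase, when newly made DNA has to be packaged, and their messages are unusual in ending at a conserved stem-loop and not in a poly(A) tail. The stem-loop is bound by SLBP, the stem-loop binding protein, which takes part in cutting the message, in its translation and in its decay. Some clustered genes also give longer, polyadenylated messages, in particular in cells that have left the cycle.

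The stem-loop is shown first, since it is the feature by which these messages are processed. It was searched in the GENCODE vM21 transcripts (GRCm38) as an exact stem of 6 base pairs with a loop of 4 bases, and 185 of 55450 genes (0.334%) held it. Of the 67 histone genes, 22 had an annotated transcript that ended within 100 bases after it, 22 ran further past it, and 23 had no such stem-loop in the annotated transcript. In the lines below, capitals mark the 16 bases of stem and loop, with 5 bases on either side as far as the transcript goes.
Hist1h1c: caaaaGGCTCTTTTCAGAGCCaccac
Hist1h2ac: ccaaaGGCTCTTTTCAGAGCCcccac
Hist1h2ad: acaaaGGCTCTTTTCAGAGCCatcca
Hist1h2ap: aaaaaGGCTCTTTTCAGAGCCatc
Hist1h2be: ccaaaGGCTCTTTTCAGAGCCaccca
Hist1h3e: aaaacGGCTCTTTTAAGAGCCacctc
Hist1h4i: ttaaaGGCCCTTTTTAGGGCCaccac
The form seen in Hist1h1c was present in 26 members of types H1, H2a, H2b and H3. The form seen in Hist1h3e was present in 6 members of types H1, H2b and H3. The 11 H4 members with a stem-loop had other stems, of which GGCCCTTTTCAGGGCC was the most frequent with 7 members and that of Hist1h4i was shared by 2.

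The annotated end differed between the members that carried most reads. Hist1h1c ran 840 bases past the stem-loop, Hist1h2be ran 1861 bases past it and Hist1h4i ran 330. The annotated transcripts of Hist2h2be and Hist1h2bc did not hold the stem-loop, and that of Hist2h2be had an AATAAA, the usual poly(A) signal, in its last 50 bases. Hist1h2ap and Hist1h2ao ended 3 and 31 bases after the stem-loop. Whether the libraries were made from poly(A) RNA is not given in the sources used here, so how far a message without a tail could be counted is unknown.

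The members are also close copies of one another, and the counting tool leaves out reads that map to several places. The share of 75-base windows of a member's transcripts that were also found in a transcript of another gene elsewhere had a median of 36.9%, was at least 50% in 27 members and was 0 in 7. By type the median was 0.735% for H1, 68.0% for H2a, 36.8% for H2b, 52.3% for H3 and 24.6% for H4. Among the members named most below it was 0 for Hist2h2be, 4.82% for Hist1h2be, 6.66% for Hist1h1c, 22.4% for Hist1h4i and 27.1% for Hist1h2bc. It was 92.6% for Hist1h2ap, 93.1% for Hist1h2ao and 96.1% for Hist2h2aa1, so their counts stand for a small part of their length. For Hist2h2aa2 it was 100%, and how its counts arose was not tested. In the annotation, the exons of 24 of the 67 members overlap those of another gene, and all 18 H2a members are among these. The exons of Hist1h2be overlap those of Hist1h1e and Gm11398. The strand setting of the counting is not stated, and the effect of such overlaps on the counts was not tested.

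RefSeq promoters (GRCm38.p6) were matched for 62 of the 67 members. Hist2h2be and Hist1h2bc had no entry, and Hist1h2be had 2. The 150 bases before the start of 3 members of high level and of Hist1h2ap are shown, with capitals for the CCAAT motif, for the letters TATAA of the TATA box and for the octamer ATTTGCAT, on either strand and with overlapping matches joined.
Hist1h1c, chr13:23738657-23738806, plus strand: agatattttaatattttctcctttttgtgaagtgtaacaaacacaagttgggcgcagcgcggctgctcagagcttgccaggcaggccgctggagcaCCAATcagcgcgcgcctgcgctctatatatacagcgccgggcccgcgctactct
Hist1h2be, chr13:23585971-23586120, minus strand: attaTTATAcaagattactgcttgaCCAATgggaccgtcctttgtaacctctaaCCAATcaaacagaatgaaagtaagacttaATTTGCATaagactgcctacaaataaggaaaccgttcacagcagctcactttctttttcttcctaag
Hist1h4i, chr13:22041363-22041512, minus strand: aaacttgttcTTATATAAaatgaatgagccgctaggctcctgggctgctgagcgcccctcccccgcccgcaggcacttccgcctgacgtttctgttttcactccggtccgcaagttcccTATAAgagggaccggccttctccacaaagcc
Hist1h2ap, chr13:21833476-21833625, minus strand: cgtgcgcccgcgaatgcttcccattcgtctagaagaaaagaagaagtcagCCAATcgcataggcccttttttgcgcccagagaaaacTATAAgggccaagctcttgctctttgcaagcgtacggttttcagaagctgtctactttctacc
Over the 250 bases before the start, CCAAT was present in 82.5% of the members' 63 promoters and in 33.8% of the 32851 RefSeq promoters. TATAA was present in 65.1% and 22.8%, and ATTTGCAT in 22.2% and 1.60%. The octamer was found in 7 of 18 H2a promoters and 7 of 17 H2b promoters, and in no promoter of the other types. CCAAT was found in all promoters of types H1, H2a and H2b, in 8 of 10 of H3 and in 3 of 12 of H4. The other promoter of Hist1h2be, at chr13:23621095-23621244, held CCAAT but neither TATAA nor the octamer. These are matches of letters and not measured sites.

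Of the 67 members, 54 lie on chromosome 13 between bases 21715763 and 23934851, 10 on chromosome 3, 2 on chromosome 11 and 1 on chromosome 6. All but 3 had a count in some library, and 47 had a count in every library. Hist1h2aa, Hist1h2ba and Hist3h2ba were at 0 in all 11 libraries, which allows up to 3 counts in each. The counts were low for most members, since 31 had a mean below 10 counts per library, 19 had at least 10 counts in every library and 5 had a mean of at least 100. The libraries held 39732710 to 44162511 counts on genes in the nApoE4 experiment and 55809688 to 69768666 in the nApoE3 experiment, and the histone genes took 0.0268 to 0.0331% and 0.00691 to 0.0106% of them. Of 11 microglial markers, 8 had at least 10 counts in every library, while P2ry12 was at 0 throughout and Aif1 at 0 to 10 counts. Of 10 markers of neurons, astrocytes, oligodendrocytes, endothelium and T cells, 4 were at 3 counts or fewer in every library, and their summed level was 9.84 to 14.8 CPM in the nApoE4 experiment and 24.0 to 27.0 CPM in the nApoE3 experiment, mostly Mbp.

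Levels are given below as CPM, the counts set relative to the library's total count on genes and scaled by TMM factors over the 11 libraries. Exon lengths were taken from GENCODE vM21 and may differ from those of the annotation used for the counting, which is not given. Per kilobase of annotated exon, Hist1h2bc had the highest mean level in each of the 4 groups and Hist1h1c the next, at 74.3 and 37.7 CPM per kb over all libraries. The order after them differed between groups. Hist2h2be was at 13.6 CPM per kb in ControlA and 7.69 in ControlB, and at 5.55 with nApoE4 and 2.53 with nApoE3. Hist1h4i was at 11.48 and 7.59 CPM per kb in these controls, and at 8.69 and 6.59 with the fragments. Hist2h2aa2 and Hist1h3g followed in ControlA at 5.83 and 5.74 CPM per kb. In ControlB they were at 1.05 and 1.55, below Hist1h2ap at 5.72. Most windows of Hist1h2ap and all of Hist2h2aa2 recur in other genes, as given above. Hist1h2bc, Hist1h1c and Hist2h2be together made up 84.1% ± 2.1 of the histone counts in ControlA (SD, n = 3), 83.9% ± 0.62 with nApoE4 (n = 3), 69.3% ± 0.63 in ControlB (n = 3) and 68.8% ± 0.74 with nApoE3 (n = 2). A sum over a type is therefore mainly a sum over 1 or 2 genes, and these sums were compared without a test.

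Summed over all 67 genes, the level was 298 CPM ± 34.3 with nApoE4 against 297 ± 20.8 in ControlA, and 77.8 ± 3.18 with nApoE3 against 101 ± 3.41 in ControlB. With nApoE4 the library sums of H1, H2b, H3 and H4 overlapped those of ControlA. The H2a sums of 7.29 to 9.85 CPM lay above the 6.30 to 6.97 of ControlA. With nApoE3 the sums of H1, H2a, H2b and H4 all lay below ControlB, with ratios of means of 0.682, 0.859, 0.771 and 0.835. The H3 sums overlapped, at a ratio of 0.955. Left without Hist1h2bc, its leading gene, the H2b sum was 29.1 CPM ± 3.36 with nApoE4 against 52.7 ± 1.45 in ControlA (a ratio of 0.553), and 15.6 ± 0.381 with nApoE3 against 33.3 ± 0.589 in ControlB (a ratio of 0.468). Left without Hist1h4i, the H4 ratio with nApoE4 changed from 0.887 to 1.14, and left without Hist1h3g the H3 ratio with nApoE3 changed from 0.955 to 1.20. The plot of sums by type shows that the groups of an experiment lay apart from those of the other for all types but H2a. Of the mean H2a sum of 6.33 CPM in ControlB, Hist1h2ap and Hist1h2ao held 2.76 and 0.730 CPM. In ControlA they held 0.0449 and 0.0224 of 6.73 CPM. Most windows of both genes recur in other genes, as given above.

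**Figure D1:**
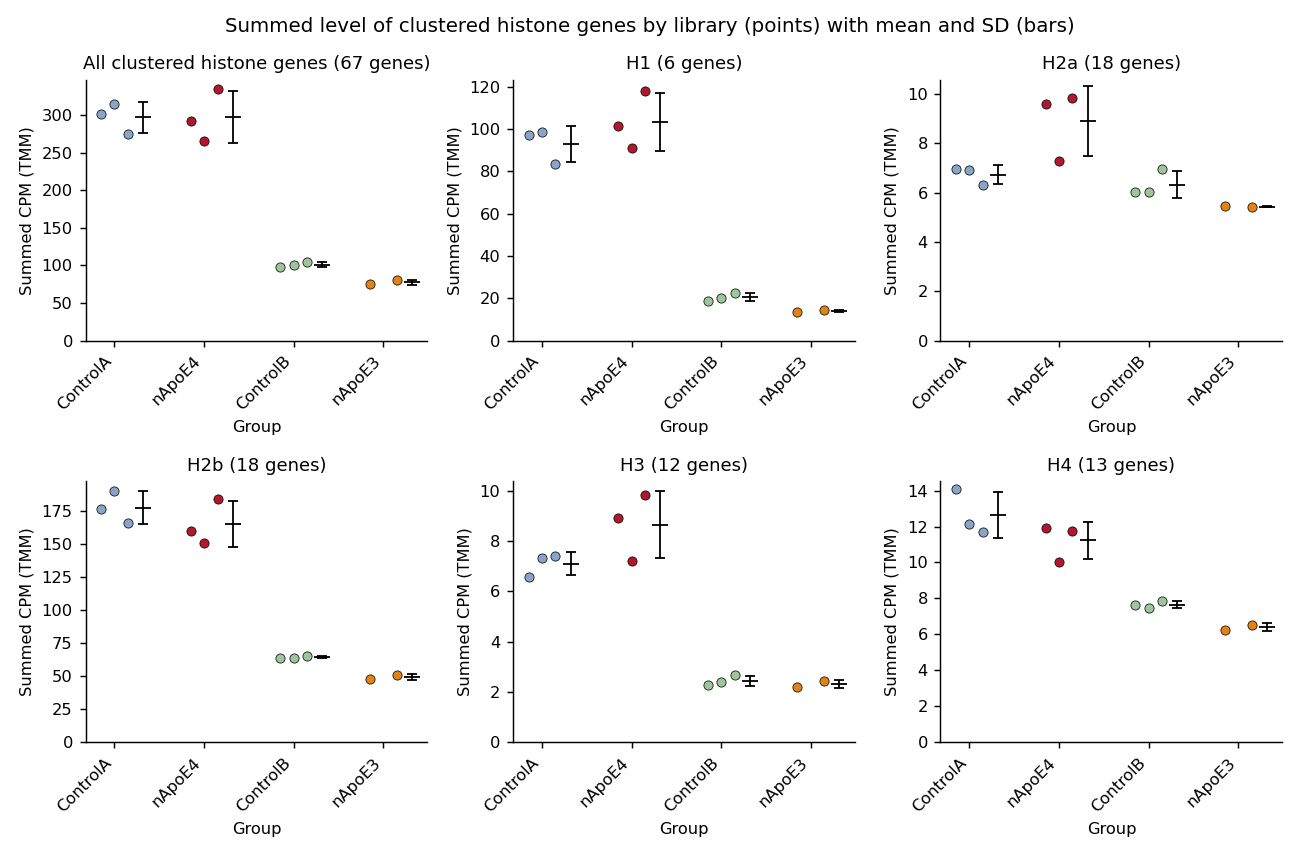
Summed level of the clustered histone genes in CPM with TMM factors (vertical axes, from 0) in each library of the 4 groups (horizontal axes), for all 67 genes and for each histone type. Points are libraries and bars give mean and SD. Every ControlB library lay below every ControlA library in all panels but H2a, where the libraries overlapped. Every nApoE3 library lay below every ControlB library in all panels but H3, where they overlapped.

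The first comparison asks how histone messages differed between nApoE4-treated cells and their controls. With nApoE4, 10 of the 35 members that passed the filter on low counts rose and 4 fell (adjusted p under 0.05, edgeR quasi-likelihood test). Of all 14240 genes tested, 57.2% were called, 28.6% in each direction, and the members' share of calls was 40.0%, below that of all genes. Their median log2 fold change was 0.33, where that of all genes tested was close to 0. Over the 19 members with at least 10 counts in every library it was 0.06, and 3 of these rose and 4 fell (36.8% called). The 4 that fell include 3 of the 5 members of highest count, and the 10 that rose were all below a mean of 100 counts per library. Since bulk RNA was measured, fewer cells with a message and less of it per cell cannot be told apart.

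Hist2h2be, an H2B gene of the chromosome 3 cluster, fell most clearly. Its counts were 1466, 1709 and 1608 in ControlA and 609, 582 and 611 with nApoE4. At the CPM level this was 35.7 ± 2.12 and 14.5 ± 0.752 (n = 3 each), with no overlap. The log2 fold change was −1.29 ± 0.07 (SE, adjusted p = 2.84e-07, edgeR). None of its 75-base windows recurs in another gene.

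The other genes that fell were Hist1h2bh, Hist1h2be and Hist1h4i. Hist1h2bh, an H2B gene, had counts of 72, 56 and 73 in ControlA and 25, 40 and 33 with nApoE4 (log2 fold change −0.92 ± 0.23, adjusted p = 0.00758, edgeR). Hist1h2be, another H2B gene, had 473, 258 and 537 counts in ControlA and 264, 224 and 259 with nApoE4 (−0.65 ± 0.23, adjusted p = 0.0363, edgeR). The second ControlA library lay among the treated libraries, at 5.75 CPM against 5.39 to 6.52. The adjusted p was 0.069 to 0.12 when any library but this one was left out. Hist1h4i, the H4 gene of highest level, had 411, 382 and 321 counts in ControlA and 256, 251 and 276 with nApoE4 (−0.40 ± 0.13, adjusted p = 0.0287, edgeR). The lowest control and the highest treated library of Hist1h4i overlapped, and the adjusted p was 0.11 without the first ControlA library and 0.091 and 0.083 without the first and second nApoE4 library.

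**Figure D2:**
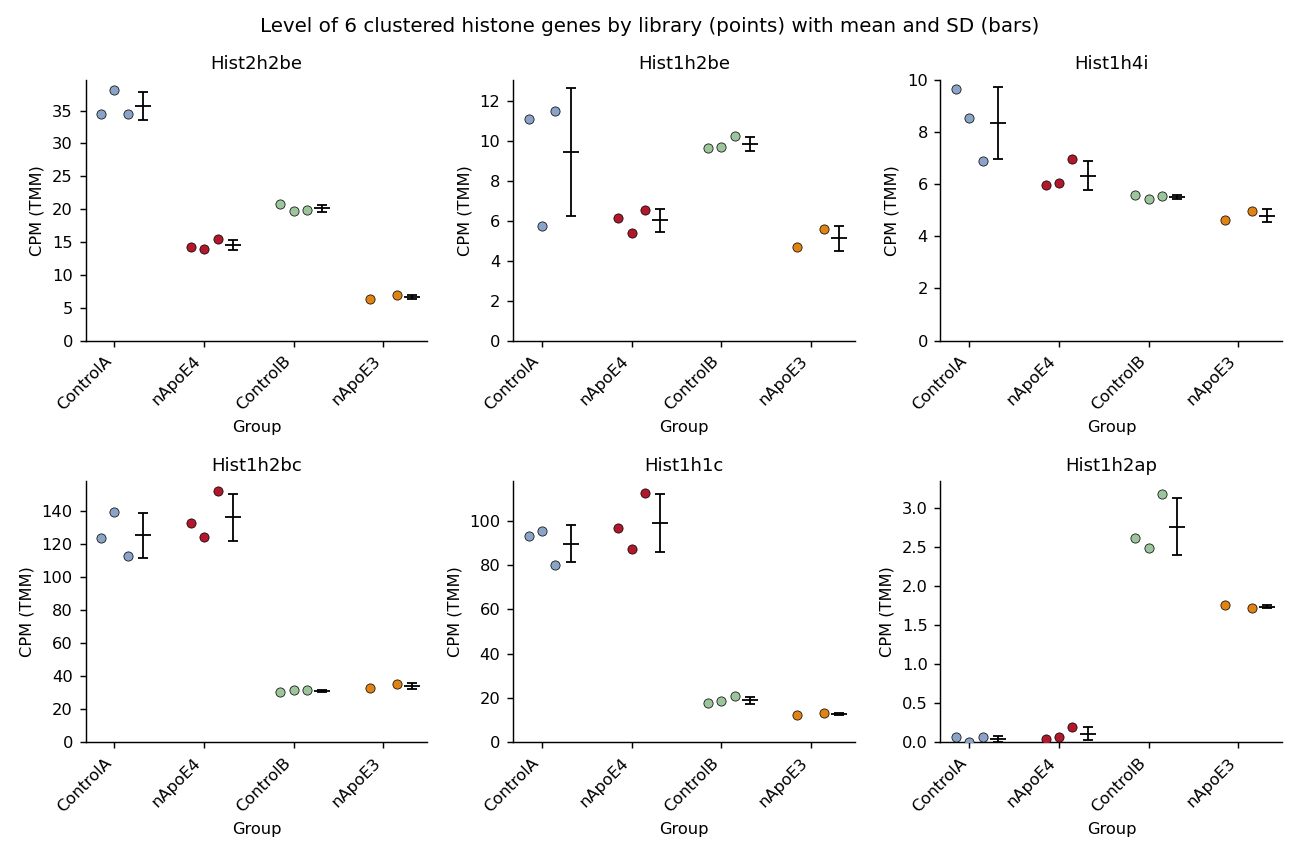
Level in CPM with TMM factors (vertical axes, from 0) of 6 clustered histone genes in each library of the 4 groups (horizontal axes), with mean and SD beside the points. Hist2h2be lay below its controls in every library of both fragments, Hist1h2bc and Hist1h1c were several times higher in both groups of the nApoE4 experiment, and Hist1h2ap stood higher in both groups of the nApoE3 experiment.

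Hist1h3e, an H3 gene, rose most with nApoE4. Its counts were 15, 12 and 12 in ControlA and 54, 42 and 46 with nApoE4, or 0.292 CPM ± 0.0521 and 1.14 ± 0.125. No treated library overlapped a control, and the log2 fold change was 1.97 ± 0.24 (adjusted p = 7.62e-05, edgeR). Its counts are low, and 59.4% of its windows recur in other genes.

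Among the H2a genes, Hist1h2ac and Hist1h2ad rose. Hist1h2ac had 31, 19 and 32 counts in ControlA and 67, 55 and 61 with nApoE4 (1.27 ± 0.23, adjusted p = 0.00122, edgeR). Hist1h2ad had 10, 15 and 13 counts in ControlA and 27, 21 and 34 with nApoE4 (1.22 ± 0.29, adjusted p = 0.00568, edgeR). In both genes every treated library lay above every control. Their counts are low, and 9.68% of the windows of Hist1h2ac and 65.5% of those of Hist1h2ad recur in other genes.

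Of the H2b genes, Hist1h2bg had 107, 93 and 78 counts in ControlA and 129, 141 and 187 with nApoE4 (0.83 ± 0.21, adjusted p = 0.007, edgeR). Hist1h2bj had 5, 13 and 5 counts in ControlA and 19, 13 and 17 with nApoE4 (1.19 ± 0.41, adjusted p = 0.03, edgeR). Of the H3 genes, Hist1h3i had 11, 21 and 20 counts in ControlA and 33, 35 and 41 with nApoE4 (1.19 ± 0.27, adjusted p = 0.00439, edgeR). The counts of Hist1h2bj and Hist1h3i are low, and 50.4% and 78.3% of their windows recur in other genes. For Hist1h2bg the share was 47.4%.

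Hist1h3a, Hist1h4n, Hist1h1d and Hist1h3d also rose, by 1.06, 0.85, 0.64 and 0.57 on the log2 scale. Of the windows of Hist1h4n, 83.4% recur in other genes. Hist1h1d, a linker histone gene, had 94, 72 and 100 counts in ControlA and 133, 107 and 141 with nApoE4. The adjusted p of Hist1h3d was 0.0488 and was above 0.05 when any library but the second nApoE4 library was left out. The call of Hist1h3a was lost without any of 4 libraries (adjusted p = 0.073 to 0.14), and that of Hist1h2bj without any of 4 (adjusted p = 0.087 to 0.11). Hist1h4n lost its call without any of 4 libraries (adjusted p = 0.10 to 0.14) and in a fit of all 11 samples (adjusted p = 0.10), and a treated library at 0.794 CPM lay below a control at 0.857. Hist1h1d lost its call without the third nApoE4 library (adjusted p = 0.057). Hist1h2bj, Hist1h3a and Hist1h3d were not called by DESeq2, at adjusted p = 0.067, 0.062 and 0.071. Leaving out the third nApoE4 library reduced the count of members that rose from 10 to 5, and leaving out the first ControlA library reduced it to 6.

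The most abundant members did not pass the test with nApoE4. Hist1h2bc had 5253, 6254 and 5255 counts in ControlA and 5687, 5160 and 6023 with nApoE4 (log2 fold change 0.13 ± 0.10, adjusted p = 0.283, edgeR). Hist1h1c had 3973, 4275 and 3736 counts in ControlA and 4155, 3617 and 4473 with nApoE4 (0.15 ± 0.10, adjusted p = 0.24, edgeR). In both genes the treated libraries spread over a range that included controls. Hist1h1e and Hist1h1b, the other H1 genes tested, had log2 fold changes of 0.66 ± 0.29 and −0.42 ± 0.28.

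**Figure D3:**
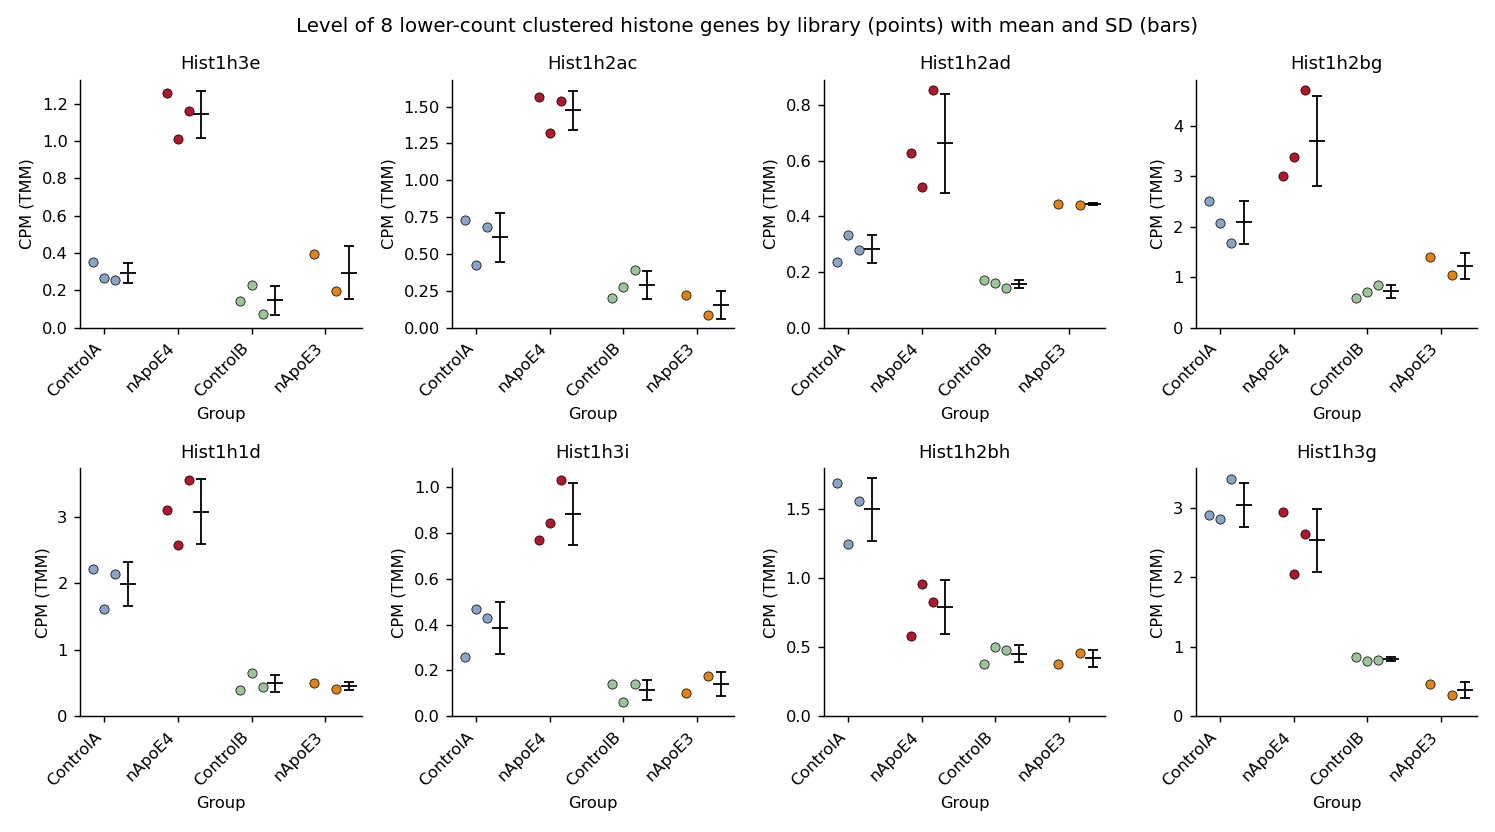
Level in CPM with TMM factors (vertical axes, from 0) of 8 clustered histone genes with lower counts in each library of the 4 groups (horizontal axes), with mean and SD beside the points. The nApoE4 libraries lay above ControlA for Hist1h3e, Hist1h2ac, Hist1h2ad, Hist1h2bg, Hist1h1d and Hist1h3i and below it for Hist1h2bh, while Hist1h3g lay below its controls with nApoE3.

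The second comparison asks the same of nApoE3. Here 3 of the 35 members that passed the filter rose and 8 fell, while of all 14817 genes tested 67.7% were called, 33.1% higher and 34.6% lower. The members' share of calls was 31.4%, below that of all genes, and their median log2 fold change was −0.19, where that of all genes was close to 0. Over the 19 members with at least 10 counts in every library the median was −0.13, and 2 of these rose and 4 fell (31.6% called). The nApoE3 group has 2 libraries, and its fit takes the spread of the treated group from those and from the 3 controls.

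Hist2h2be again fell most clearly. Its counts were 1468, 1226 and 1117 in ControlB and 371 and 388 with nApoE3, or 20.1 CPM ± 0.568 (n = 3) and 6.62 ± 0.350 (n = 2). The groups did not overlap, and the log2 fold change was −1.61 ± 0.06 (adjusted p = 8.4e-11, edgeR). Hist1h2be had 680, 600 and 579 counts in ControlB and 272 and 315 with nApoE3, again without overlap (−0.95 ± 0.09, adjusted p = 7.04e-07, edgeR).

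The linker histone genes Hist1h1c and Hist1h1b fell with nApoE3. Hist1h1c had 1239, 1148 and 1166 counts in ControlB and 730 and 742 with nApoE3 (−0.56 ± 0.07, adjusted p = 1.13e-05, edgeR). Hist1h1b had 25, 20 and 31 counts in ControlB and 6 and 5 with nApoE3 (−2.06 ± 0.43, adjusted p = 0.00102, edgeR). In both genes the treated libraries lay below all controls. The other H1 genes tested, Hist1h1d and Hist1h1e, had log2 fold changes of −0.13 ± 0.29 and −0.20 ± 0.27.

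Hist1h3g, the H3 gene of highest level, had 60, 49 and 46 counts in ControlB and 27 and 17 with nApoE3 (−1.10 ± 0.25, adjusted p = 0.00207, edgeR). Hist1h4j, an H4 gene, had 23, 14 and 7 counts in ControlB and 3 in each nApoE3 library (−2.10 ± 0.60, adjusted p = 0.00829, edgeR). The treated libraries lay at the floor of 3 counts per library, so the size of this fall is uncertain. Its call was lost, at adjusted p = 0.0555 and 0.0504, when either nApoE3 library was left out. Hist1h4i was lower with nApoE3 in both libraries, at 269 and 280 counts against 393, 336 and 313, and just missed the threshold (−0.21 ± 0.09, adjusted p = 0.0504, edgeR).

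The H2a genes Hist1h2ap and Hist1h2ao fell with nApoE3. Hist1h2ap had 184, 154 and 179 counts in ControlB and 102 and 97 with nApoE3 (−0.67 ± 0.15, adjusted p = 0.00185, edgeR), and its adjusted p was 0.0548 in a fit of all 11 samples. Hist1h2ao had 51, 47 and 40 counts in ControlB and 23 and 30 with nApoE3 (−0.66 ± 0.24, adjusted p = 0.0271, edgeR). Neither could be tested with nApoE4, where they had 0 to 8 counts in the libraries of both groups. The call for Hist1h2ao was lost without the first nApoE3 library (adjusted p = 0.2), without the second ControlB library (adjusted p = 0.064) and in DESeq2 (adjusted p = 0.13).

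Hist1h2ad, Hist1h2bg and Hist1h2bc rose with nApoE3. Hist1h2ad had 12, 10 and 8 counts in ControlB and 26 and 25 with nApoE3 (1.47 ± 0.32, adjusted p = 0.00145, edgeR). Hist1h2bg had 42, 44 and 48 counts in ControlB and 82 and 59 with nApoE3 (0.77 ± 0.22, adjusted p = 0.00854, edgeR), and its adjusted p was 0.12 without the first nApoE3 library. Hist1h2bc, the most abundant member, had 31.1 CPM ± 0.769 in ControlB and 34.1 ± 2.00 with nApoE3 (0.13 ± 0.04, adjusted p = 0.0218, edgeR), a call that was lost without the second nApoE3 library (adjusted p = 0.26) and without the first ControlB library (adjusted p = 0.087).

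Of the 29 members tested with both fragments, Hist2h2be and Hist1h2be were called lower with both and Hist1h2ad and Hist1h2bg higher with both. A further 7 were called with nApoE4 alone, 5 with nApoE3 alone and 13 (44.8%) with neither. Of the 13750 genes tested with both fragments, 22.3% were lower with both and 21.3% higher with both, 10.2% were called with nApoE4 alone, 23.5% with nApoE3 alone and 19.1% with neither. A call with 1 fragment alone does not show that the responses differ, which was tested as an interaction over the 11 libraries.

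**Figure D4:**
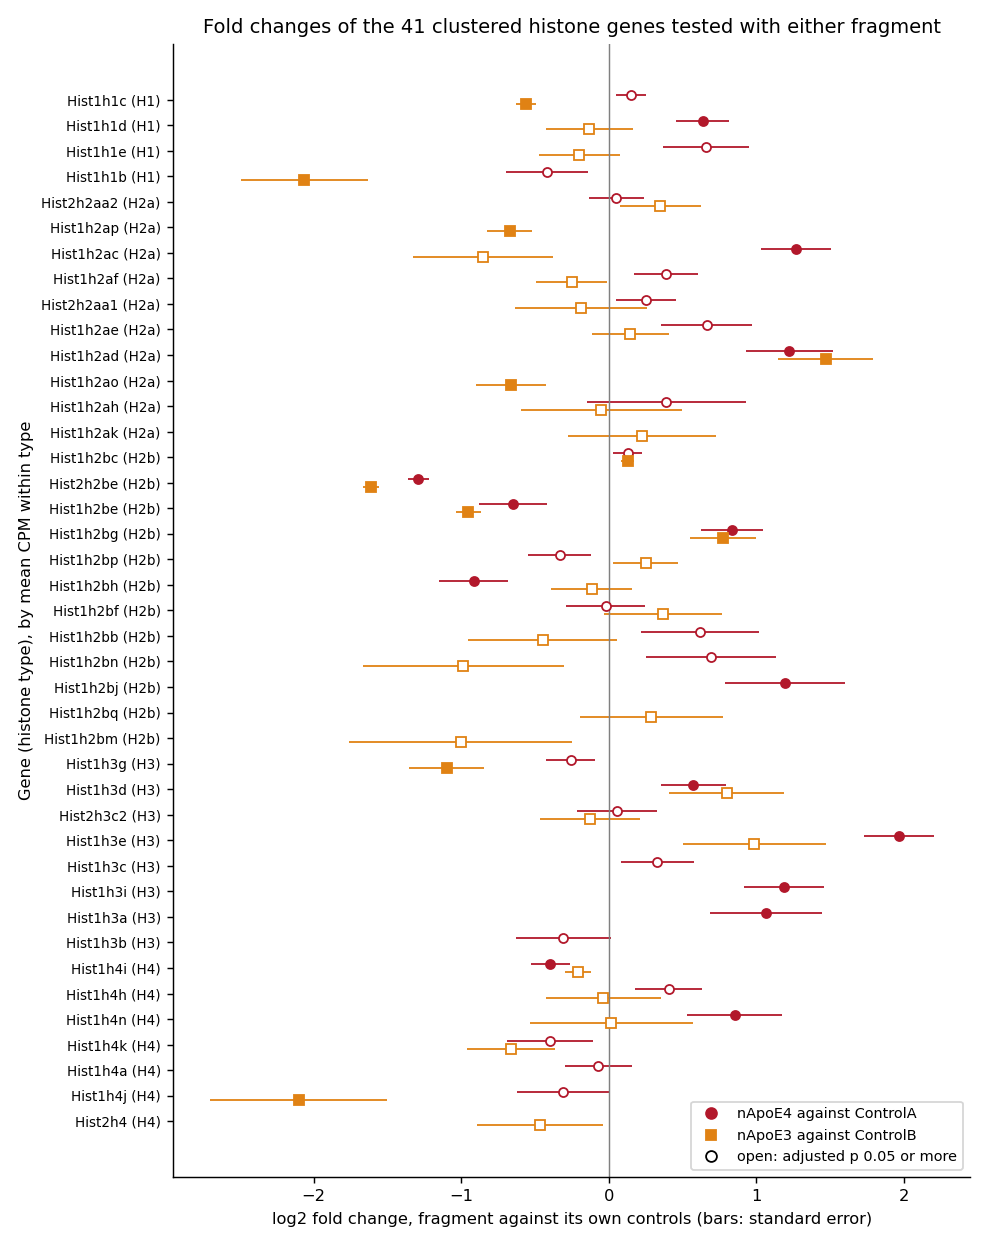
log2 fold changes (horizontal axis) of the 41 clustered histone genes tested with nApoE4 (circles) or nApoE3 (squares) against their own controls, ordered by type and then by mean CPM (vertical axis), with standard errors as bars and filled points at adjusted p under 0.05. Hist2h2be and Hist1h2be lay to the left with both fragments, and Hist1h2ad and Hist1h2bg lay to the right with both. Hist1h1c and Hist1h2ac, like some other members, lay on opposite sides of 0, and each was called with 1 fragment alone. No member was called in opposite directions.

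The interaction test called 4 of the 43 members that passed its filter, or 9.3%, against 28.3% of the 15287 genes tested, 14.4% with the higher log2 fold change under nApoE4 and 13.9% with the lower. All 4 had the higher log2 fold change with nApoE4. The count of members with the higher fold change under nApoE3 was 0 by edgeR and 0 by DESeq2, with 2 at an unadjusted p under 0.05 in edgeR. Hist1h2ac differed by 2.11 ± 0.52 on the log2 scale (adjusted p = 0.00851, edgeR), from 1.27 ± 0.23 with nApoE4 to −0.85 ± 0.47 with nApoE3, where its counts were 14, 17 and 22 in ControlB and 13 and 5 in the treated libraries. Hist1h1b differed by 1.63 ± 0.52 (adjusted p = 0.0335, edgeR) and Hist1h1c by 0.70 ± 0.15 (adjusted p = 0.00325, edgeR). For Hist2h2be, which fell with both fragments, the fall with nApoE3 was larger by 0.31 ± 0.09 (adjusted p = 0.0261, edgeR).

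The difference rests on few libraries for most of these genes. The adjusted p of Hist1h2ac was 0.058 without the second nApoE3 library, and that of Hist2h2be rose to 0.06 to 0.15 when any of 4 libraries was left out, 1 in each group. That of Hist1h1b was 0.052 to 0.13 without any of 6 libraries. Hist1h1c kept its call whichever library was left out, but with the replicate number as a block it was at adjusted p = 0.0506, and none of the 4 was called in that fit. For Hist1h2bc and Hist1h2be the differences of −0.01 ± 0.13 and 0.29 ± 0.30 did not pass the test.

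Many H2A and H2B genes start head to head a short distance apart. Within 1000 bases, 13 such arrangements of 2 members were annotated, of which 12 joined an H2a and an H2b gene, and their members are named here for position and not for their values. Hist1h2ac and Hist1h2bc start 250 bases apart. The former rose with nApoE4 while the latter, with far higher counts, was not called. Hist1h2bf and Hist1h2ad start 184 bases apart, and with both fragments Hist1h2ad rose while Hist1h2bf, at −0.02 ± 0.27 and 0.37 ± 0.40, was not called. Hist1h2ae and Hist1h2bg start 175 bases apart, and with both fragments Hist1h2bg was called and Hist1h2ae, at 0.66 ± 0.31 and 0.14 ± 0.26, was not. Hist2h2be has Hist2h2ac as its neighbour 238 bases away, which had 1 to 12 counts per library and was not tested. In all 3 arrangements with both genes tested for nApoE4, 1 gene of the 2 was called, as it was in 4 of 5 for nApoE3. A call of 1 gene and not of its neighbour is no test of a difference between them.

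By the annotated end of the message, the members with nApoE4 calls were 4 of the 12 tested that end near the stem-loop, 8 of the 13 tested that run past it and 2 of the 10 tested without it. With nApoE3 the calls were 3 of 11, 4 of 14 and 4 of 10. The shares of 33.3%, 61.5% and 20.0% with nApoE4 stand against 57.2% of all genes, and those of 27.3%, 28.6% and 40.0% with nApoE3 against 67.7%. No test compared the classes. The class without the stem-loop joins short annotated transcripts, such as Hist1h4k at 312 bases and Hist1h3i at 411, with long ones such as Hist2h2be at 2620. A stem-loop missing from a short annotation does not show how the message ends. The median log2 fold changes with nApoE4 were 0.37, 0.57 and 0.03 in the 3 classes, and with nApoE3 they were −0.04, −0.16 and −0.46. The summed level of the members that end near the stem-loop was 11.2 CPM ± 0.526 in ControlA and 13.4 ± 2.86 with nApoE4, with overlapping libraries. It was 7.40 ± 0.810 in ControlB and 6.59 ± 0.131 with nApoE3, which did not overlap (a ratio of 0.890). The sums of the members that run past the stem-loop and of those without it also lay below ControlB with nApoE3, at ratios of 0.712 and 0.792, and overlapped ControlA with nApoE4.

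The control groups differed more in these genes than treated and control cells did. Between ControlB and ControlA, 24 of 37 members tested were lower in ControlB and 2 were higher (edgeR), and 17 of the 24 were lower by more than 2-fold. Of all 14249 genes tested, 69.3% were called, with 34.4% higher, 34.9% lower and 12.5% lower by more than 2-fold. The members' median log2 fold change was −1.0, against −0.01 over all genes. This comparison crosses experiments that were sequenced to different depths, and the experiment and anything that varied with it cannot be told apart.

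Hist1h1c was 89.6 CPM ± 8.30 in ControlA and 18.9 ± 1.60 in ControlB (log2 fold change −2.26 ± 0.09, adjusted p = 6.03e-07, edgeR). Hist1h2bc was 125 CPM ± 13.5 in ControlA and 31.1 ± 0.769 in ControlB (−2.03 ± 0.08, adjusted p = 5.71e-07, edgeR). Hist2h2aa2, Hist1h4a and Hist2h2aa1 were lower, at −2.49 ± 0.25, −2.39 ± 0.26 and −2.37 ± 0.24 on the log2 scale. In each of these genes every ControlB library lay below every ControlA library. All windows of Hist2h2aa2 and most of those of Hist2h2aa1 recur in other genes, as given above.

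Other members stood at similar or higher levels in ControlB. Hist1h2be was 9.45 CPM ± 3.21 in ControlA and 9.86 ± 0.354 in ControlB (0.04 ± 0.22, adjusted p = 0.872, edgeR). Without the second ControlA library this turned to −0.21 ± 0.07 (adjusted p = 0.0138, edgeR). Hist1h2ap had 3, 0 and 3 counts in ControlA and 184, 154 and 179 in ControlB, which is at least 41.1-fold higher against the floor of 3 counts per library. Hist1h2ao had 1 count in each ControlA library and 51, 47 and 40 in ControlB, at least 10.9-fold higher. Most windows of these 2 genes recur in other genes, as given above, and the part of this in the difference was not tested.

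**Figure D5:**
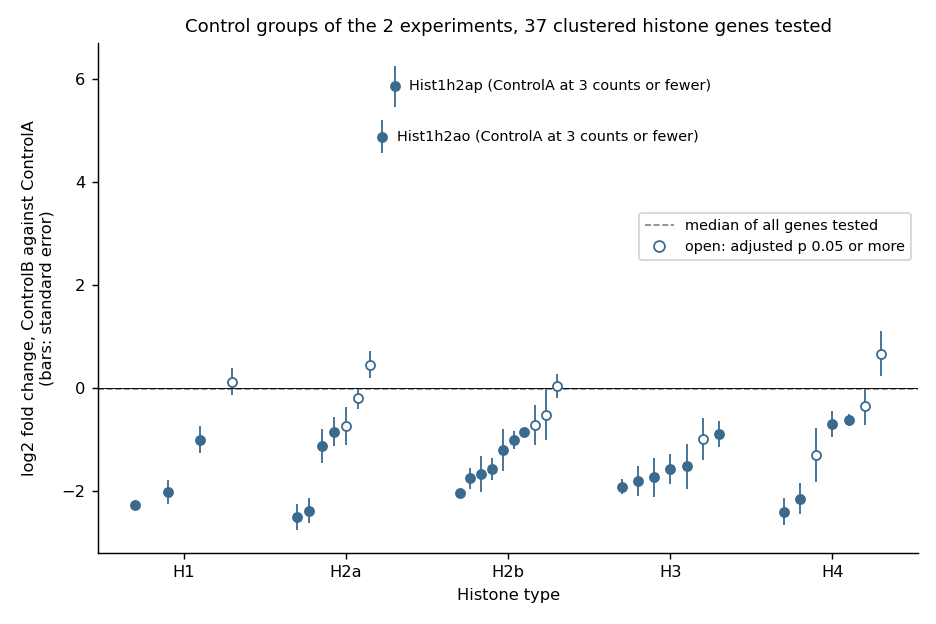
log2 fold changes of the 37 clustered histone genes tested between ControlB and ControlA (vertical axis) by histone type (horizontal axis), with standard errors as bars, filled points at adjusted p under 0.05 and a dashed line at the median of all genes tested. Of 26 genes called, 24 lay below 0 in all 5 types, and Hist1h2ap and Hist1h2ao, with 3 counts or fewer in every ControlA library, lay far above it.

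RNAs that carry no poly(A) tail were read beside this comparison. Of 10 such RNAs, 4 could be tested between the control groups. Rpph1, the RNA of RNase P, was at 4.54 to 7.87 CPM in ControlA and 52.4 to 58.6 in ControlB (log2 fold change 3.11 ± 0.16, adjusted p = 1.82e-06, edgeR). Rn7sk and Rmrp were lower in ControlB (−2.35 ± 0.29 and −2.49 ± 0.41), as most histone genes were, and Terc was at −0.03 ± 0.34. Their part in the difference of the histone genes was not tested.

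Genes that serve the histone messages were followed from lists chosen with earlier results of these data known. Slbp fell with both fragments, from 54.2 CPM in ControlA to 29.3, 26.9 and 30.5 in the nApoE4 libraries (−0.90 ± 0.07, adjusted p = 4.95e-06, edgeR). With nApoE3 it was at 43.5 CPM in each library against 83.9, 85.0 and 84.7 in ControlB (−0.96 ± 0.03, adjusted p = 2.76e-11, edgeR). Npat, the coactivator of histone gene transcription, fell by 0.81 and 0.74 on the log2 scale, and Casp8ap2, a component of the histone locus body, fell by 0.61 and 0.82. Of the 14 genes of histone message synthesis, processing and decay, 8 fell and 2 rose with nApoE4, and 10 fell and 2 rose with nApoE3. These calls are 71.4% and 85.7% of the list, against 57.2% and 67.7% of all genes.

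The S-phase genes moved together. Of 26, 23 fell with nApoE4 and 25 with nApoE3, with medians of −0.71 and −0.64 on the log2 scale, and the others were not called. Cdc6, which loads the replicative helicase, fell by 1.85 ± 0.07 and 1.80 ± 0.04 on the log2 scale. Ccne1, the gene of cyclin E1, fell by 1.58 with nApoE4, and Uhrf1, which keeps DNA methylation through replication, fell by 1.43 with nApoE3. Over all genes, 28.6% and 34.6% were called lower. Of the clustered histone genes in the same libraries, 10 of 35 tested were higher and 4 lower with nApoE4, and 3 of 35 were higher and 8 lower with nApoE3. The 10 of 35 equal the 28.6% of all genes called higher. In ControlB, 18 of the 26 S-phase genes were higher than in ControlA and 2 were lower, against 34.4% and 34.9% of all genes, while 24 of 37 histone genes were lower.

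Of 14 histone chaperones and chromatin assembly factors, 5 of 12 tested fell with nApoE4 and the others were not called. With nApoE3, 8 of 13 fell and 3 rose. The share called was 41.7% with nApoE4, below the 57.2% of all genes, and 84.6% with nApoE3, above the 67.7% of all genes. Chaf1a, a subunit of the assembly factor CAF-1, fell by 0.93 ± 0.06 and 1.11 ± 0.03 on the log2 scale. Nasp, a carrier of histones H3 and H4, fell by 0.60 with nApoE4. The largest called change of the list with nApoE3 went the other way, with Daxx higher by 1.81 ± 0.31 (adjusted p = 0.000248, edgeR). Daxx had low counts, since it did not pass the filter with nApoE4 or between the control groups and was not tested there.

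The histone variants, encoded outside the clusters and mostly by polyadenylated messages, were the closest set for comparison. Most are also made outside S phase. Of 11 variant genes, 10 were tested. With nApoE4 2 rose and 6 fell, and with nApoE3 1 rose and 7 fell, or 8 of 10 called with each, against 57.2% and 67.7% of all genes. H3f3b, an H3.3 gene, rose with both fragments, by 0.50 ± 0.08 and 0.68 ± 0.02. H2afx fell by 0.36 ± 0.06 and 0.35 ± 0.03 on the log2 scale, and H2afv by 0.61 and 0.85. H2afz was at −0.09 ± 0.09 with nApoE4 and fell by 0.24 ± 0.03 with nApoE3. H1f0, the linker histone of cells that are not dividing, rose by 0.26 with nApoE4 and fell by 0.61 with nApoE3, and the summed level of the variants was 2144 to 2581 CPM in the nApoE4 experiment, against 266 to 334 CPM for the 67 clustered genes.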

How the data were processed

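RNA of 11 BV2 samples was sequenced by the authors as single-end reads. Adapters were removed with Trim Galore 0.5.0, read quality was checked with FastQC 0.11.8, and reads were aligned to GRCm38.p6 with HISAT2 2.1.0. The authors deposited raw counts per gene made with HTSeq 0.11.0. The annotation release, strand setting and library selection are not given in the sources used here. The rows of reads not assigned to a gene stayed out of all tests.

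Counts were analyzed with edgeR 4.0.16 in R 4.3.3, with its filterByExpr filter, TMM factors and quasi-likelihood test. P-values were adjusted by Benjamini-Hochberg over all genes tested, and calls were made at an adjusted p-value under 0.05. The standard error is the absolute log2 fold change over the root of the F statistic. Treated samples were set against the controls of their experiment, the difference was an interaction over 11 samples, and the control groups were compared with the same test. DESeq2 1.42.0 was an alternative. The fit was tested on simulated data with 200 changed genes. Groups and replicate numbers came from the labels. Sample numbers did not pair samples, since the correlations of same-numbered deviations were −0.17 to −0.04 and about −0.01.

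Named members were the 4 of highest mean CPM in each type, the 6 largest called changes in each direction with each fragment and the 4 largest for the difference and for the controls. From each related list the 2 largest called changes with each fragment qualified, with Slbp, Npat, H2afx and H2afz always included. Members and lists were chosen with earlier results of these data known. Depth is given with the results, and a floor of 3 counts limits low genes by counting error alone.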

Additional observations from a re-analysis of the deposited data

Results flagged for a closer look

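In 4 of 43 clustered histone genes tested, the response to nApoE4 differed from the response to nApoE3 in the interaction test of edgeR. This share of 9.3% lay below the 28.3% of all genes tested. None of the 4 was called with the replicate number as a block. The difference in log2 fold change was 2.11 for Hist1h2ac, 1.63 for Hist1h1b, 0.70 for Hist1h1c and 0.31 for Hist2h2be. Hist1h2ac was higher in 3 of 3 nApoE4 libraries than in every control and lay within or below the controls in the 2 nApoE3 libraries. Hist1h1c and Hist1h1b were below every control in 2 of 2 nApoE3 libraries, and Hist2h2be was below every control in all 5 treated libraries. Fragment and experiment cannot be told apart in these differences.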

How the results depend on the processing

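The direction of the counts of calls was kept under DESeq2, DESeq2 size factors, looser and stricter filters and a joint fit. The stricter filter asked for 10 counts in each library of a comparison. Among the 19 members with at least 10 counts in all 11 libraries, 3 rose and 4 fell with nApoE4. With the replicate block, which rests on shared numbers alone, the members called for the difference between the fragments went from 4 to 0, and no other count moved by more than 1.5 times. With at least 10 counts in every sample, 0 members were higher in ControlB, because Hist1h2ap and Hist1h2ao left the test. Leaving out each library gave 5 to 11 members higher and 2 to 4 lower with nApoE4, 2 to 5 higher and 6 to 8 lower with nApoE3, 2 to 5 higher and 0 to 1 lower for the difference, and 2 higher and 21 to 27 lower in ControlB. Without 1 nApoE3 library, the remaining one was assumed to vary like the other groups. The only named gene to change sign with a call in either fit was Hist1h2be between the controls. It was at −0.21 without the second ControlA library, in a range of −0.21 to 0.211 over the libraries left out. Some values that were not called also changed sign, such as that of Hist2h3c2 with nApoE3, at −0.80 to 0.34.

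The log2 ratios of the type sums moved by more than the spread between libraries as follows. Without the leading gene of each type they were, with nApoE4, 0.43 for H1, 0.65 for H2a, −0.86 for H2b, 0.59 for H3 and 0.19 for H4. With nApoE3 they were −1.10 for H2b, 0.27 for H3 and −0.42 for H4. Between controls they were −1.14 for H1, 0.66 for H2a, −0.66 for H2b, −1.33 for H3 and −1.01 for H4. With members of at least 10 counts in every library they were 0.16 for H2a and 0.0029 for H3 with nApoE4, 0.10 for H2a and −0.26 for H3 with nApoE3, and −1.36 for H2a between controls. Without TMM factors, which moved the median of all genes by −0.14 with nApoE3, they were −0.69 for H1, −0.36 for H2a, −0.51 for H2b, −0.20 for H3 and −0.40 for H4. The low counts of most members limit what could be tested.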
